A study of Homo sapiens with 12 samples.

Results

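Genes for splicing factors and RNA helicases were compared between HEK293 cells given a miR-1825 mimic (a synthetic copy of that microRNA) and cells that received a control siRNA. The genes were chosen by symbol: those that start with SRSF, HNRNP, SF3, PRPF, SNRP, LSM, RBM, DDX or DHX, or with CLK and a digit, and hold no hyphen. HNRNPA1, HNRNPA2B1 and their pseudogenes were left out. This gave 147 genes of 14884 named genes on the array, after 4 of 151 matching genes had been left out, and each gene was represented by its transcript cluster (the array's unit of measurement) with the highest mean. Of the 147, 139 are protein-coding and 8 are transcribed pseudogenes. The families were RBM with 36 genes, DDX with 35, HNRNP with 21, DHX with 16, SNRP with 12, SRSF with 11, PRPF with 10, CLK with 4 and LSM with 2. No SF3 gene, and neither DDX58 nor DDX3X, had a named cluster, and these genes were not analysed here. The symbol rule also took in genes that are not what the families are known for: LSMEM1, which encodes a membrane protein, and 4 DDX11L pseudogenes. HNRNPA1L2, a near-identical retrocopy of HNRNPA1 that is annotated as protein-coding, was kept and is uncertain as a measurement of its own locus.

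There were 6 mimic arrays and 6 control arrays (Human Gene 2.0 ST from Affymetrix). HEK293 is an adenovirus-transformed human embryonic kidney line. All cells were transfected by the same lipid reagent with RNA at 5 nM, either the miR-1825 mimic or the commercial AllStars negative control siRNA, and harvested at 24 h. No untransfected cells were included, and the labels do not say whether replicates were separate cultures. The p-values therefore rest on a spread between arrays that may be technical.

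In the splicing reaction, small nuclear ribonucleoproteins (snRNPs) with Sm and LSm protein rings recognise the ends of introns, PRPF proteins assemble them into the spliceosome, and DEAD-box (DDX) and DEAH-box (DHX) helicases drive its rearrangements with ATP. SR proteins (SRSF) and hnRNP proteins bind exons and introns and steer the choice of splice sites, and the CLK kinases phosphorylate SR proteins. Many of these genes are known to control their own mRNA through unproductive splicing or retained introns. A transcript cluster gives 1 value for a gene, so spliced and intron-retaining RNA cannot be told apart, and in bulk samples a changed level per cell and a changed share of cells cannot be told apart.

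The transfected agent corresponds to the mature microRNA below, shown because it is what distinguishes the groups. It lies at chr20:32237830-32237847 on the plus strand (RefSeq, GRCh38.p14) and is printed 5′ to 3′ with its seed, bases 2 to 8, in capitals.
hsa-miR-1825: uCCAGUGCccuccucucc
No target sites in the mRNAs of the 147 genes were analysed here.

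The arrays were alike, with a correlation between any pair of 0.988 to 0.994 over 53617 clusters. Of the HEK293 markers EYA1, LHX1, NES, PAX2 and PAX8, 4 of 5 lay at or above the median cluster mean of 4.48, the exception being PAX8. Of the leukocyte markers, 0 of 2 measured did (CD14 and LYZ), against 1 of 2 fibroblast markers (LUM) and 3 of 4 epithelial markers. The markers' summed linear level overlapped between mimic and control arrays in each of these 4 lists. All 4 epithelial markers had lower means after the mimic, and their sum ran from 325.7 to 355.8 in mimic arrays and from 323.5 to 384.2 in control arrays. CLDN7, a tight junction protein, averaged 5.24 ± 0.17 in mimic arrays and 5.46 ± 0.13 in control arrays, with 0 of 6 mimic arrays above the control mean (log2 fold change -0.22, limma adjusted p = 0.379 over all clusters). Its part in the results was not tested. Of the 147 genes, 113 lay in the brightest 25% of clusters, those with a mean log2 value of at least 6.29.

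Across the 147 genes the levels after the mimic were slightly higher. A higher mean in mimic than in control arrays was seen for 105 genes (71.4%) and a lower one for 42. Of all clusters 46.6% had a higher mean, and of all named genes 50.1%. In the brightest 25% of clusters 75.2% of the 113 genes were higher, against 59.2% of all clusters and 59.9% of named genes there. The median log2 fold change (mimic minus control) was 0.04, against -0.01 over all clusters and 0.0002 over all named genes. Within the brightest 25% the median was 0.048 for the 113 genes, against 0.019 over all clusters and 0.018 over named genes there. For the 147 genes the quartiles were -0.01 and 0.10, and the extremes were -0.17 (the pseudogene DDX11L9) and 0.33 (CLK1). A change of more than 1.2-fold was seen in 3 of the 147 genes, all of them higher: CLK1 (1.26-fold), PRPF39 and HNRNPCL2. Of all 53617 clusters, 1614 were higher and 1258 lower by more than 1.2-fold. Of the 14884 named genes, 124 were higher and 164 lower by that much.

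In the limma test over all 53617 clusters, 0 of the 147 genes passed an adjusted p of 0.05, where 0.0112% of all clusters did. At an unadjusted p under 0.05 there were 30 genes, 29 of them higher and 1 lower. The 29 are 19.7% of the 147 genes, against 5.36% of all clusters that were higher at this level, and the 1 lower gene stands against 5.4% of all clusters. Of all clusters in the brightest 25%, 2032 were higher and 831 lower at this level as deposited, and 1426 were higher and 1440 lower after quantile normalization. Within the brightest 25% of clusters, 34 of the 113 genes there (30.1%) were higher at an unadjusted p under 0.05, against 15.2% of all clusters and 15.4% of named genes in that range. A further 2 of the 113 were lower, PRPF8 and RBM20, against 6.2% of clusters. Among the 34 genes outside the brightest 25%, 2 were higher at this level over all clusters, HNRNPCL2 and SNRPF.

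The list's median stayed above 0 under both other scalings, and its size moved. The median of all named genes moved too, to -0.006 after quantile normalization and 0.015 with centred arrays. After quantile normalization 96 of the 147 genes were higher, with a median of 0.02, and 21 genes were higher (14.3%, against 5.02% of all clusters) and 3 lower at an unadjusted p under 0.05. The brightest 25% then held 26 higher genes of 113 (23.0%), against 10.6% of all clusters. With the arrays centred on their medians 116 were higher, with a median of 0.06, and 31 higher genes (21.1%, against 6.21% of all clusters) and 0 lower genes had an unadjusted p under 0.05. The array medians themselves ran from 4.44 to 4.501 in mimic arrays and from 4.46 to 4.51 in control arrays. Without mimic replicates 4 and 5, a choice made after seeing the data, 110 genes were higher and 30 of them had an unadjusted p under 0.05.

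**Figure D1:**
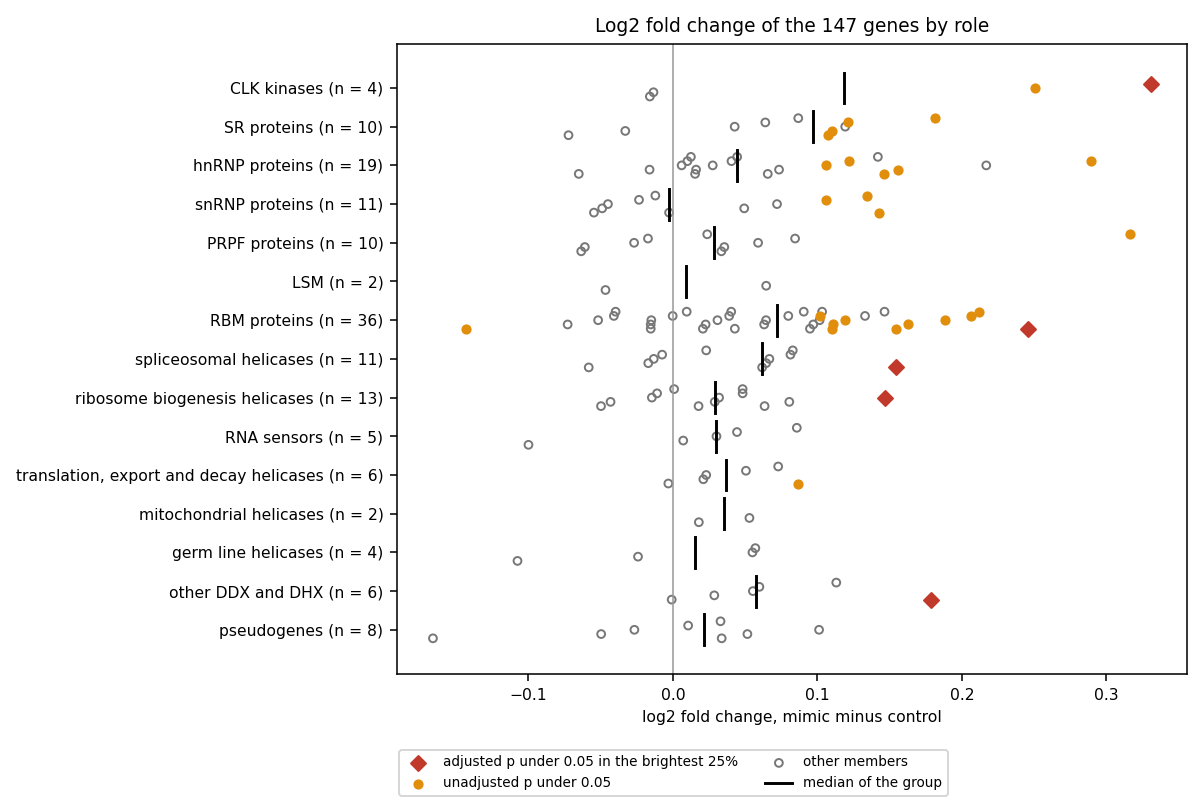
Log2 fold change of each of the 147 genes (horizontal axis, mimic minus control, log2 units as deposited), with 1 row per role, black ticks at the median of each role and colours for the test passed. Red diamonds are the 5 genes with an adjusted p under 0.05 in the brightest 25% of clusters, all higher, and the snRNP row has its median just below 0 (-0.003).

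Per array, the mean of the 147 genes minus the mean of all named genes was 2.03, 2.06, 2.02, 1.99, 2.00 and 2.03 in mimic replicates 1 to 6. It was 1.98, 1.95, 1.98, 1.97, 1.99 and 1.96 in control replicates 1 to 6. The group means were 2.02 ± 0.02 in mimic arrays and 1.97 ± 0.02 in control arrays (SD, n = 6 each). The groups overlapped slightly, because mimic replicate 4 at 1.987 lay below control replicate 5 at 1.990. Taken over the 113 bright genes against all clusters of the brightest 25%, the differences were 0.831 to 0.863 in mimic arrays and 0.812 to 0.831 in control arrays. Mimic replicate 4 was again the lowest of its group, and mimic replicate 2 the highest. The medians of the whole arrays were 4.458, 4.443, 4.454, 4.501, 4.488 and 4.499 in mimic replicates 1 to 6. In control replicates 1 to 6 they were 4.477, 4.497, 4.492, 4.491, 4.463 and 4.515. Among mimic arrays, replicate 2 thus had the lowest array median and replicate 4 the highest. The part of array-wide differences in these values was not tested.

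**Figure D2:**
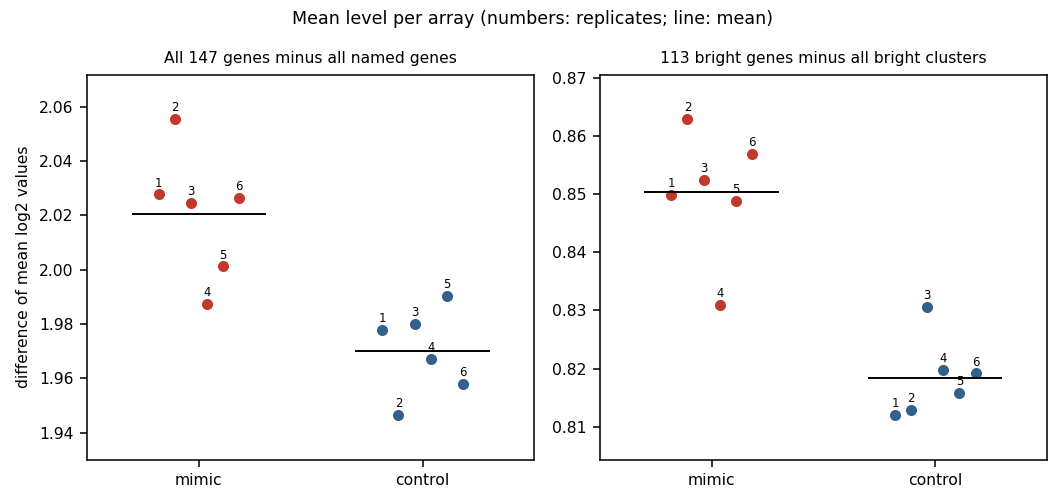
Mean log2 value of the genes minus the mean of a background (vertical axis, log2 units) for each array, mimic left and control right, with replicate numbers beside the points and lines at the group means. In the left panel (147 genes against all named genes) the lowest mimic array, replicate 4, is just under the highest control array, replicate 5; in the right panel (113 bright genes against all clusters of the brightest 25%) mimic replicate 4 and control replicate 3 are nearly level.

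Fitted and adjusted within the brightest 25% of clusters, 5 of the 113 genes rose and 0 fell. That is 4.42% of them, where 1.42% of clusters in that range were called higher and 0.38% lower. The 5 were CLK1, RBM48, DHX40, DDX52 and DDX5. In each of them every mimic array lay above the control mean, which their selection on this difference makes likely. These calls rested on all arrays together. The count was 0 without any one of mimic replicates 1, 2, 3 and 6 or control replicates 2 and 4. It was 1 without control replicate 1 or 6, 2 without mimic replicate 5 or control replicate 3, and 6 without mimic replicate 4 or control replicate 5. It was also 3 after quantile normalization, 2 with centred arrays, 0 when the test took in the brightest 40% or all clusters down to the median. The loss was not particular to these genes. Over all clusters of the brightest 25%, the 242 calls became 26, 24, 47 and 37 without mimic replicates 1, 2, 3 and 6 in turn. They became 23 and 24 without control replicates 2 and 4 in turn.

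CLK1, a kinase of the nuclear speckle that phosphorylates SR proteins, had log2 values of 6.81, 6.99, 6.98, 6.91, 6.91 and 7.19 in mimic replicates 1 to 6. In control replicates 1 to 6 it had 6.64, 6.66, 6.55, 6.72, 6.84 and 6.38. Mimic replicate 6 was the highest and control replicate 6 the lowest, and the groups met only where mimic replicate 1 fell below control replicate 5. The means were 6.96 ± 0.13 in mimic arrays and 6.63 ± 0.15 in control arrays (SD, n = 6 each), 1.26-fold (limma adjusted p = 0.0476 in the brightest 25%, 0.229 over all clusters). CLK4, its closest relative in the family, ran from 6.77 to 7.24 in mimic arrays and from 6.45 to 6.92 in control arrays. These groups overlapped more, with mimic replicates 4 and 6 inside the control range. The log2 fold change of CLK4 was 0.25 (SE 0.09; limma adjusted p = 0.138 in the brightest 25%), and it did not pass. CLK2 averaged 6.06 ± 0.10 in mimic arrays and 6.08 ± 0.09 in control arrays. CLK3 averaged 8.67 ± 0.05 in mimic arrays and 8.69 ± 0.08 in control arrays. For CLK2 the 95% interval of the log2 fold change was -0.14 to 0.11 and for CLK3 it was -0.11 to 0.09, while that of CLK1 was 0.16 to 0.50. Differences between the 4 kinases in their response were not tested.

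DDX5, the DEAD-box helicase p68 that takes part in splicing and in microRNA processing by Drosha, had values of 11.55, 11.64, 11.59, 11.46, 11.57 and 11.55 in mimic replicates 1 to 6. In control replicates 1 to 6 it had 11.46, 11.40, 11.42, 11.37, 11.41 and 11.37. All mimic arrays lay above all control arrays, narrowly in the case of mimic replicate 4 and control replicate 1. The means were 11.56 ± 0.06 in mimic arrays and 11.40 ± 0.03 in control arrays (SD, n = 6 each), 1.11-fold (limma adjusted p = 0.0380 in the brightest 25%, 0.242 over all clusters). Its paralogue DDX17, named here for that relation, had a log2 fold change of 0.02.

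DDX52, whose yeast homologue Rok1 acts in assembly of the small ribosomal subunit, had values of 10.45, 10.39, 10.39, 10.35, 10.37 and 10.40 in mimic arrays and 10.23, 10.20, 10.25, 10.21, 10.29 and 10.29 in control arrays. The groups did not overlap. The means were 10.39 ± 0.03 in mimic arrays and 10.25 ± 0.04 in control arrays (SD, n = 6 each), 1.11-fold (limma adjusted p = 0.0327 in the brightest 25%, 0.241 over all clusters). DHX40, a DEAH-box gene, had values of 10.46, 10.43, 10.49, 10.48, 10.36 and 10.51 in mimic arrays and 10.30, 10.30, 10.35, 10.15, 10.30 and 10.27 in control arrays. Again the groups did not overlap, with mimic replicate 5 closest to the controls and control replicate 4 the lowest. The means were 10.46 ± 0.05 in mimic arrays and 10.28 ± 0.07 in control arrays (SD, n = 6 each), 1.13-fold (limma adjusted p = 0.0391 in the brightest 25%, 0.240 over all clusters).

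RBM48, an RNA-binding protein that takes part in splicing of minor (U12-type) introns, had values of 6.72, 6.84, 6.84, 6.72, 6.83 and 6.87 in mimic arrays and 6.53, 6.40, 6.53, 6.59, 6.76 and 6.53 in control arrays. Only control replicate 5 reached into the mimic range. The means were 6.80 ± 0.07 in mimic arrays and 6.56 ± 0.12 in control arrays (SD, n = 6 each), 1.19-fold (limma adjusted p = 0.0435 in the brightest 25%, 0.229 over all clusters). With each array left out in turn, DDX52 kept its call in 5 of 12 fits, DDX5 and DHX40 in 3 each, RBM48 in 2 and CLK1 in 1. Over those 12 fits the log2 fold change ran from 0.13 to 0.16 for DDX52 and from 0.28 to 0.37 for CLK1.

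**Figure D3:**
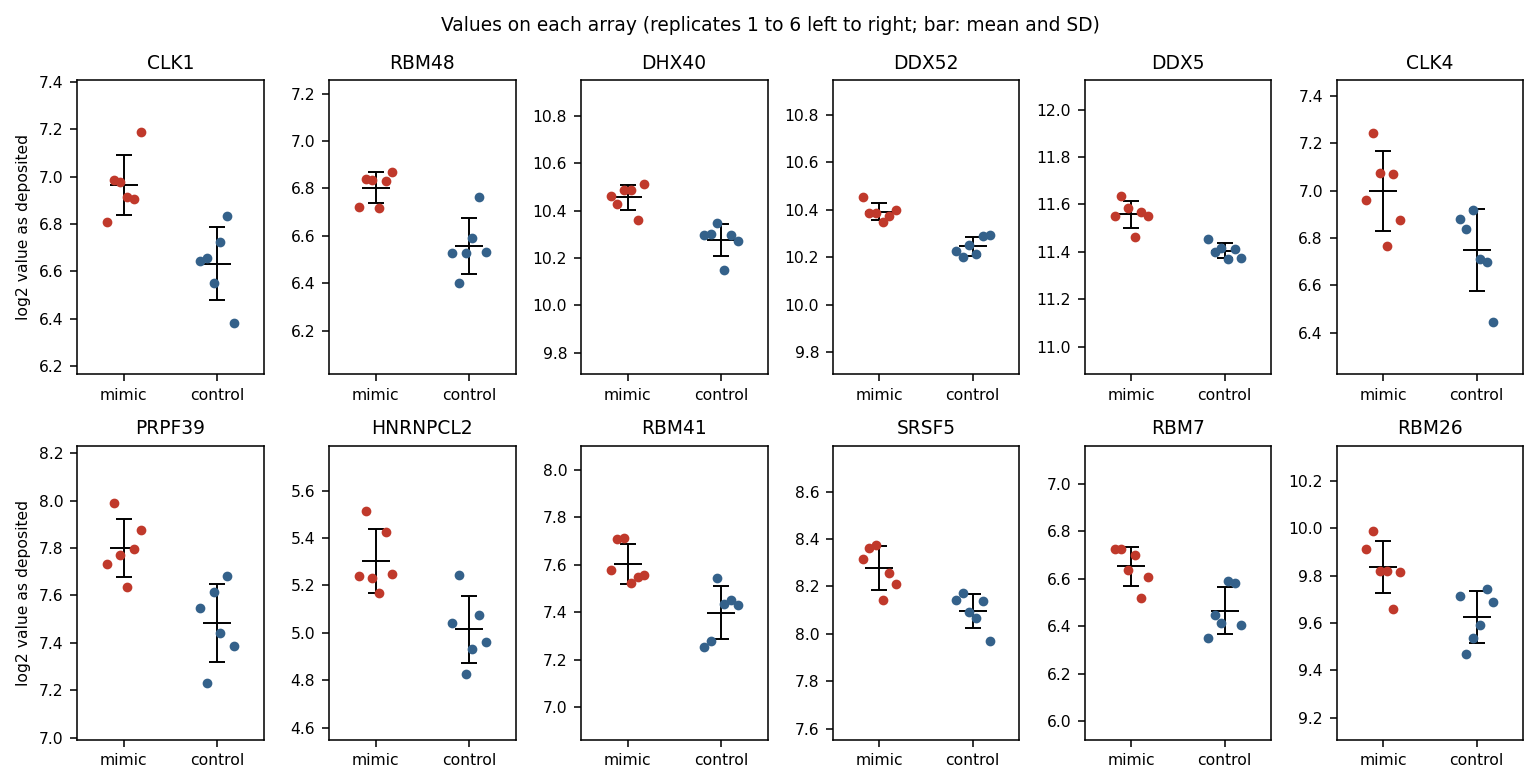
Log2 value as deposited on each array (points, replicates 1 to 6 from left to right; mimic left, control right) with mean and SD, for the 5 called genes, CLK4 and the 6 further genes with the smallest p; each panel spans the same range of log2 units. DDX5, DDX52 and DHX40 show separate groups, while in the other 9 panels at least 1 control array reaches the mimic range.

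For the 5 called genes RefSeq promoter windows were at hand for CLK1, DDX5 and DHX40, and they are shown to let the promoters of these genes be compared with the motif counts below. Each is the 250 bases before the first listed transcription start, 5′ to 3′ on the gene's strand (GRCh38.p14). The windows are chr2:200864659-200864908 (minus strand) for CLK1, chr17:64506639-64506888 (minus strand) for DDX5 and chr17:59565360-59565609 (plus strand) for DHX40. Capitals mark CGGAAG (the core of sites of ETS-family factors), TGACGT (part of the CRE motif), CACGTG (an E-box) and CCAAT on either strand.
CLK1: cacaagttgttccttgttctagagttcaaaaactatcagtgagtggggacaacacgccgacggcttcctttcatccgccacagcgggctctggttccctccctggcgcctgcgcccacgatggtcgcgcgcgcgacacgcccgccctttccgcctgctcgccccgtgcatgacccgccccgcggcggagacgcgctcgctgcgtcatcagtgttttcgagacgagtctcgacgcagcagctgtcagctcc
DDX5: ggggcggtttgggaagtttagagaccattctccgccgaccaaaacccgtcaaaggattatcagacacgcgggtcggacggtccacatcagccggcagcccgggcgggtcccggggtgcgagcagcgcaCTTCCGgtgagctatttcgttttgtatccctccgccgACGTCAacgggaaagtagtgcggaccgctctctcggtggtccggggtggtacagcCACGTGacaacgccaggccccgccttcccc
DHX40: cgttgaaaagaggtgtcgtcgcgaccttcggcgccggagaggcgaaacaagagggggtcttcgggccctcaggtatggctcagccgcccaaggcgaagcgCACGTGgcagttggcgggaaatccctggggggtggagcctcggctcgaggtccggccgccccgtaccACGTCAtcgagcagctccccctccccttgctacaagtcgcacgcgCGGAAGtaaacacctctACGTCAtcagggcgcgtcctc
The CLK1 window held none of these letter strings, while DDX5 and DHX40 each held CGGAAG once and CACGTG once. TGACGT occurred 1 time in the DDX5 window and 2 times in that of DHX40.

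Windows of 250 bases were matched for 127 of the 147 genes and searched on both strands, beside 27305 gene promoters in all, of which 15843 belong to protein-coding genes. CGGAAG stood in 51 of the 127 (40.2%), against 16.8% of all promoters and 21.7% of protein-coding ones. The longer form CCGGAAGT, which contains it, stood in 16 (12.6%), against 3.64% of all and 5.09% of protein-coding promoters. CCAAT stood in 64 (50.4%), against 33.0% of all and 34.5% of protein-coding promoters. TGACGT stood in 20 (15.7%), against 7.42% and 8.67%, in the same order of comparison. For CACGTG it was 16 (12.6%), against 6.49% and 7.84%. The GC box GGGCGG stood in 74 (58.3%), against 42.3% of all and 56.0% of protein-coding promoters. TATAAA was found in 8 (6.3%), against 11.1% and 9.23%, and AAGATGGC (the motif of YY1) in 2 (1.57%), against 1.37% and 1.39%. Of the 29 genes higher at an unadjusted p under 0.05, 24 had a window; CGGAAG stood in 11 of these (45.8%) and CCAAT in 6 (25%). These shares describe letters in a window and were not tested. The promoters compared with belong to genes whether expressed in these cells or not, while 113 of the 147 genes lay in the brightest 25% of clusters. Shares among expressed genes alone were not analysed here.

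SR proteins bind exonic enhancers and recruit the early spliceosome. Of the 10 measured, 8 had higher and 2 lower means, 4 were higher at an unadjusted p under 0.05 and 0 passed with limma in either test. For this and the other roles, the shares of all clusters to set beside are 46.6% with a higher mean and 5.36% higher at that level. In the brightest 25% of clusters they are 59.2% and 15.2%. The median log2 fold change was 0.10, or 0.08 after quantile normalization. SRSF5 had values of 8.32, 8.36, 8.38, 8.14, 8.26 and 8.21 in mimic arrays and 8.14, 8.17, 8.09, 8.07, 8.14 and 7.97 in control arrays. Mimic replicate 4 alone lay within the control range. Its fold was 1.13 (limma adjusted p = 0.0646 in the brightest 25%). SRSF2, also called SC35, averaged 10.70 ± 0.06 in mimic arrays and 10.58 ± 0.06 in control arrays, and SRSF6 averaged 10.63 ± 0.06 in mimic arrays and 10.52 ± 0.04 in control arrays. The adjusted p values in the brightest 25% were 0.104 for SRSF2 and 0.0974 for SRSF6 with limma. The 2 members with lower means, SRSF8 and SRSF4, had log2 fold changes of -0.07 and -0.03.

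Among the hnRNP proteins, which package nascent RNA and often oppose SR proteins, 17 of 19 had higher means, though 13 after quantile normalization, and 5 were higher at an unadjusted p under 0.05. The median was 0.04 (0.02 after quantile normalization), and 0 passed with limma in either test. HNRNPDL, a relative of the RNA-binding protein HNRNPD, averaged 10.67 ± 0.05 in mimic arrays and 10.52 ± 0.08 in control arrays (limma adjusted p = 0.0671 in the brightest 25%). HNRNPR, a relative of SYNCRIP, averaged 10.56 ± 0.04 in mimic arrays and 10.46 ± 0.04 in control arrays, and its groups did not overlap (limma adjusted p = 0.0711 in the brightest 25%). HNRNPCL2 had values of 5.24, 5.51, 5.23, 5.17, 5.42 and 5.25 in mimic arrays and 5.04, 5.24, 4.83, 4.93, 5.08 and 4.96 in control arrays. Control replicate 2 reached into the mimic range. Its log2 fold change of 0.29 is uncertain as a gene assignment, because HNRNPCL genes are near-identical copies of each other and close to HNRNPC. HNRNPCL1 had a log2 fold change of -0.07 and HNRNPC one of 0.14, and neither passed (limma adjusted p = 0.716 and 0.516 over all clusters).

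The snRNP proteins were divided. Of 11, 5 had higher and 6 lower means, and the median was -0.003 (-0.03 after quantile normalization and 0.01 with centred arrays). Within them 3 were higher at an unadjusted p under 0.05, and 0 passed with limma in either test. The Sm proteins SNRPF and SNRPD3, parts of the Sm ring of the U1, U2, U4 and U5 snRNPs, had log2 fold changes of 0.14 and 0.11. SNRPB2, a U2 snRNP protein, had 0.13. Their adjusted p values over all clusters were 0.383, 0.454 and 0.383 with limma. In SNRPD3 mimic replicate 4 was the lowest of its group at 11.63, against 11.76 to 11.82 in the other 5. SNRPE, which has 2 clusters, had -0.04 in the brighter and 0.01 in the other, so its sign depends on the cluster. Several snRNP genes have processed pseudogenes, so their values may include other copies.

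PRPF proteins were mixed, with 6 of 10 higher and a median of 0.03 (0.006 after quantile normalization). Of the 10, 9 lay in the brightest 25% of clusters, where 59.2% of all clusters had a higher mean. PRPF39, a U1 snRNP-associated factor known from its yeast homologue, had values of 7.73, 7.99, 7.77, 7.64, 7.80 and 7.88 in mimic arrays and 7.55, 7.23, 7.61, 7.44, 7.68 and 7.39 in control arrays. Control replicate 5 reached above mimic replicate 4, and control replicate 2 was the lowest. The fold was 1.24, the second largest of the 147 genes, and missed the threshold (limma adjusted p = 0.0556 in the brightest 25%). PRPF3, a U4/U6 protein, had a log2 fold change of 0.08. PRPF8, the U5 protein at the catalytic centre, averaged 11.68 ± 0.04 in mimic arrays and 11.74 ± 0.03 in control arrays (log2 fold change -0.06, limma adjusted p = 0.212 in the brightest 25%). Of the 2 LSM symbols, LSM12 had 0.06 and LSMEM1 had -0.05, and neither passed (limma adjusted p = 0.735 and 0.882 over all clusters). None of LSM1 to LSM8 was among the 147 genes, so these values do not describe the LSm rings.

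RBM proteins are a naming class of RNA-recognition-motif proteins with roles from splicing to RNA decay. Of 36, 27 had higher means (25 after quantile normalization), with a median of 0.07 (0.06 after quantile normalization). At an unadjusted p under 0.05 there were 10 higher and 1 lower, and RBM48 was the 1 call in the brightest 25%. RBM41 had values of 7.58, 7.71, 7.71, 7.52, 7.55 and 7.56 in mimic arrays and 7.25, 7.28, 7.54, 7.44, 7.45 and 7.43 in control arrays. Only control replicate 3 reached the lowest mimic array. RBM7, the RNA-binding subunit of the NEXT complex that feeds nuclear RNA to the exosome, had values of 6.72, 6.72, 6.64, 6.70, 6.52 and 6.61 in mimic arrays and 6.35, 6.45, 6.41, 6.59, 6.58 and 6.40 in control arrays. Mimic replicate 5 lay within the control range. RBM26 had values of 9.91, 9.99, 9.82, 9.82, 9.66 and 9.82 in mimic arrays and 9.72, 9.47, 9.54, 9.59, 9.74 and 9.69 in control arrays. Here too mimic replicate 5 alone overlapped with the controls. The folds were 1.15 for RBM41, 1.14 for RBM7 and 1.16 for RBM26, with limma adjusted p values in the brightest 25% of 0.0671, 0.0688 and 0.0789. RBM20, the regulator of titin splicing in heart muscle, was singled out after its values were seen, as the 1 gene lower at an unadjusted p under 0.05. It averaged 6.28 ± 0.08 in mimic arrays and 6.42 ± 0.11 in control arrays (limma adjusted p = 0.422 over all clusters).

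Spliceosomal helicases had 7 of 11 higher and a median of 0.06 (0.04 after quantile normalization), with DDX5 as the 1 call. All 11 lay in the brightest 25% of clusters, where 59.2% of all clusters had a higher mean and 1.42% were called higher. The count of 7 is near that share. DHX15, which disassembles the spliceosome, averaged 10.76 ± 0.03 in mimic arrays and 10.70 ± 0.04 in control arrays. Its groups did not overlap, although the fold was 1.05 (limma adjusted p = 0.185 in the brightest 25%). DHX16, which acts at spliceosome activation, has 8 clusters, whose log2 fold changes ran from 0.07 to 0.08. Ribosome biogenesis helicases, all 13 also in the brightest 25%, had 9 higher (7 after quantile normalization). Their median was 0.03 (0.005 after quantile normalization), with DDX52 as the 1 call. Translation, export and decay helicases, all 6 also in the brightest 25%, had 5 higher (4 after quantile normalization) and a median of 0.04 (0.02 after quantile normalization). Among them DDX1, a subunit of the tRNA ligase complex, had a log2 fold change of 0.09 and DDX6, which links microRNA-mediated repression to decapping, had 0.02 (95% interval -0.07 to 0.11).

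Helicases that sense foreign RNA did not pass in this comparison, in which both groups had received double-stranded RNA. Of 5, 4 had higher means and 1 a lower mean, and 0 had an unadjusted p under 0.05 or passed with limma. DHX9, also called RNA helicase A, averaged 11.05 ± 0.02 in mimic arrays and 11.01 ± 0.05 in control arrays. DHX58 (LGP2) averaged 4.21 ± 0.22 in mimic arrays and 4.20 ± 0.19 in control arrays, and DDX60 averaged 3.87 ± 0.13 in mimic arrays and 3.97 ± 0.19 in control arrays. Both lay below the median cluster mean, where the background level is not known. The 4 germ line helicases (DDX4, DDX25, DDX43 and DDX53) had 2 higher and 2 lower means, with none in the brightest 25% of clusters. The 8 pseudogenes had 5 higher and 3 lower means and a median of 0.02, none at an unadjusted p under 0.05.

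**Figure D4:**
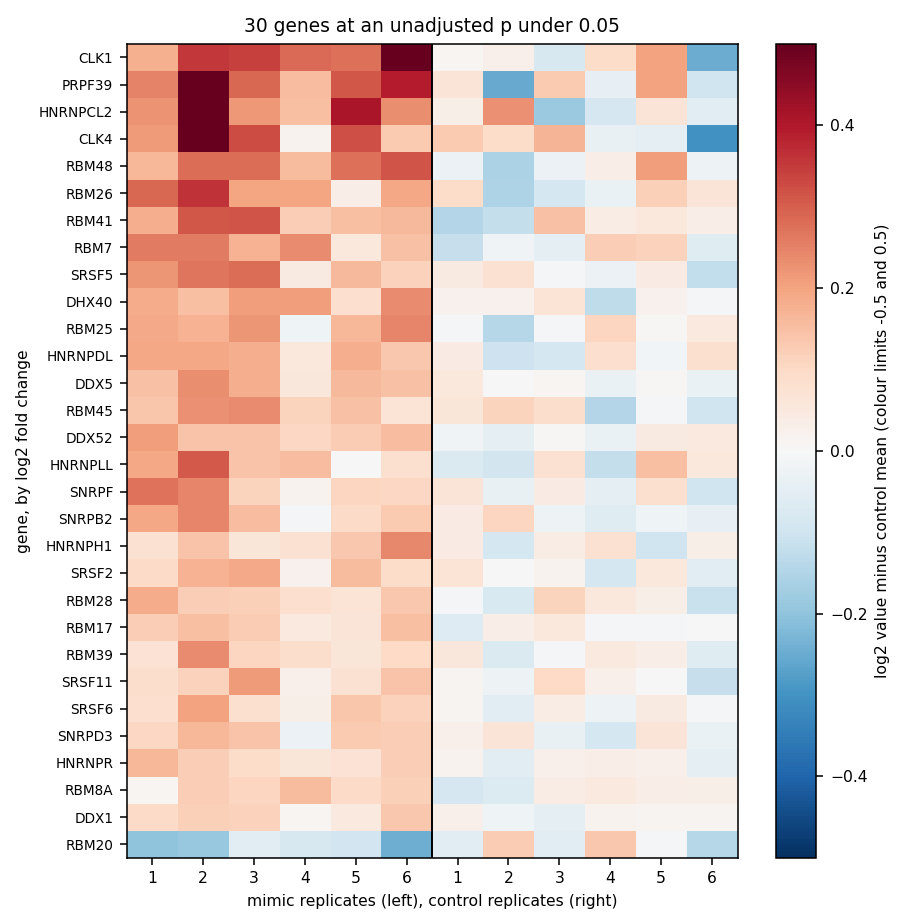
Log2 value minus the control mean (colour) for the 30 genes at an unadjusted p under 0.05, ordered by log2 fold change, with mimic replicates 1 to 6 left and control replicates 1 to 6 right. The genes were chosen for this difference; mimic replicate 4 is the lowest mimic array for 19 of the 29 higher genes, and RBM20 is the one gene in blue.

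The 29 higher genes did not move equally on all mimic arrays. Their median distance from the control mean was 0.18, 0.23, 0.18, 0.08, 0.13 and 0.13 in mimic replicates 1 to 6. In control replicates 1 to 6 it was 0.02, -0.04, 0.02, -0.03, 0.03 and -0.03. Mimic replicate 4 was the lowest mimic array for 19 of the 29 and mimic replicate 2 the highest for 12. Since the genes were selected on the difference between the groups, these values describe the arrays and test nothing. Without mimic replicate 4, 113 of the 147 genes were higher, against 105 with it.

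No overlap between the groups, with every mimic array above every control array, was found for 8 of the 147 genes, all among the brightest 25% of clusters. This compares with 0.759% of all clusters and 2.52% of the brightest 25%. They were DDX5, DDX21, DDX52, DHX15, DHX40, HNRNPM, HNRNPR and RBM39, of which DDX21, HNRNPM and RBM39 were named after their values were seen. No gene had every mimic array below every control array, which only 222 of all 53617 clusters had, so this absence among 147 genes says little. The size of these separations was small: HNRNPM averaged 12.20 ± 0.03 in mimic arrays and 12.13 ± 0.03 in control arrays, and DDX21, a nucleolar helicase, averaged 11.76 ± 0.02 in mimic arrays and 11.70 ± 0.02 in control arrays.

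Other genes of the splicing pathway, listed by function and not matched by the symbol rule, also had mostly higher means as deposited. Of 45 measured of 58 listed, 36 were higher and 9 lower, and the median difference was 0.04 on the log2 scale. Of the 41 in the brightest 25% of clusters 78.0% had a higher mean, against 59.2% of all clusters there. After quantile normalization 26 of the 45 were higher. At an unadjusted p under 0.05 there were 6 higher and 0 lower, and 0 passed with limma over all clusters. In the brightest 25%, 11 of 41 (26.8%) were higher and 1 lower at an unadjusted p under 0.05, against 15.2% of all clusters there that were higher. After quantile normalization 4 were higher and 3 lower, a share of higher genes no larger than the 10.6% of all clusters. The 11 became 4 without mimic replicate 1, and 7 without mimic replicate 6 or without control replicate 2. In this range 1 of the 41 passed, near the 1.42% of all clusters called higher. That gene was CWC22, which loads the exon junction complex, at 9.58 ± 0.07 in mimic arrays and 9.39 ± 0.08 in control arrays (limma adjusted p = 0.0456 in the brightest 25%). It passed in 2 of 12 fits without single arrays and not with centred arrays. LUC7L3, a U1-associated protein, averaged 9.37 ± 0.07 in mimic arrays and 9.17 ± 0.11 in control arrays (limma adjusted p = 0.0635 in the brightest 25%). GEMIN2 and GEMIN6, parts of the SMN complex that assembles snRNPs, had log2 fold changes of 0.20 and 0.15 (limma adjusted p = 0.308 and 0.36 over all clusters). Of the other GEMIN genes measured, GEMIN4 had -0.09, GEMIN5 0.01, GEMIN7 0.04 and GEMIN8 0.09. GEMIN4 was the 1 pathway gene lower at an unadjusted p under 0.05 in the brightest 25%, so the GEMIN genes did not move together. ACIN1, an exon junction complex protein, had 0.11, and TIA1, which binds U-rich introns, had 0.13.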

How the data were processed

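The authors deposited 1 log2 value per transcript cluster and array. The submitters' processing notes name Expression Console (Affymetrix); no version, background correction or normalization is stated there. The log2 scale was inferred from the values, which run from 1.62 to 14.4. Values were used as deposited. The number of arrays limits the precision. The platform annotation named 16098 of 53617 clusters and RefSeq (GRCh38.p14) gave gene types. Mimic was compared with control across all clusters by limma 3.58.1 in R 4.3.3 (lmFit, eBayes, no trend, no block) with Benjamini-Hochberg adjustment, and again within the brightest 25% of clusters, those with the highest mean over all 12 arrays. Tests were two-sided, with a threshold of 0.05. The fit was tested on simulated data with independent noise and with larger changes than most of the 147 genes had. That test therefore does not cover changes as small as most seen here, or shifts of a whole array.

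The genes, roles, lists and tests were chosen with earlier results of these data known. Named genes were those called, the up to 3 of each family with the smallest p, all CLK genes, a few chosen for their role, and the 6 pathway genes with the smallest p. CLDN7, HNRNPC, HNRNPCL1, HNRNPM, DDX11L9, DDX17, DDX21, RBM20, RBM39, SNRPE, SRSF4 and SRSF8 lie outside that rule and were named after their values were seen. The same holds for GEMIN4, GEMIN5, GEMIN7 and GEMIN8, which were set beside GEMIN2 and GEMIN6. Pathway genes without a named cluster were not analysed here. Alternatives changed the scaling, the prior, the filter, the rows per gene, the block and the arrays used.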

Additional observations from a re-analysis of the deposited data

Results flagged for a closer look

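In 78 groups of 6 arrays (38 genes and the mean level of the 147 genes, in mimic and in control arrays), the highest or lowest array was compared with its neighbours. A large gap was found in 3 groups, and chance alone flags about 1 group in 20. In mimic arrays, replicate 4 was the lowest for SNRPD3 at 11.626, against 11.758 to 11.819 in the other 5, and for LSMEM1 at 3.788, against 3.949 to 4.040. In control arrays, replicate 4 was the lowest for DHX40 at 10.148, against 10.272 to 10.346.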

How the results depend on the processing

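Over all clusters 0 of the 147 genes passed under every alternative run, the 12 fits without single arrays included. In the brightest 25% of clusters the count of 5 became 3 after quantile normalization, 2 with centred arrays, 8 with a trend and robust prior, 0 with a replicate block, 15 at an adjusted p of 0.1, and 0 in the brightest 40% or at or above the median. It was 3 without mimic replicates 4 and 5 together, and 0 to 6 without single arrays. Over all clusters of the brightest 25% the 242 calls became 448 with the trend and robust prior and 9 with the replicate block. At an adjusted p of 0.1 there were 974. The replicate block gave 22 genes at an unadjusted p under 0.05 against 30; same-numbered arrays did not deviate together (correlations -0.113 to 0.084), 1 of 6 mimic arrays correlated best with its own number, and the numbers were not taken as pairs. Of all 242 calls there, 78.9% were higher as deposited and 52.7% of 239 after quantile normalization. The median of the 147 genes stayed above 0 in each fit run (0.04 to 0.05 without single arrays). For the pathway genes the 0 calls over all clusters became 1 in the brightest 25%. Values near 0 changed sign: CLK3 was 0.0016 with centred arrays, and without mimic replicates 4 and 5 together CLK2 was 0.0039, CLK3 0.0022 and DHX58 -0.0639. Without single arrays CLK2 ran from -0.0357 to 0.0167, CLK3 from -0.0356 to 0.008, DHX58 from -0.0435 to 0.0751 and LSMEM1 from -0.0937 to 0.0053. The causes were not tested. Dim clusters, whose background is not known, limit what can be said of 34 of the 147 genes.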
